A study of Mus musculus with 7899 samples.

Results

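Transcriptomes of pancreatic β cells were compared between pregnant mice kept on a high-fat diet and pregnant mice kept on a standard diet, both labelled Acss2 WT and both at stage G14.5 of gestation. The cells were chosen by their labels alone, as the β cells named HFD_G14.5_Acss2WT and SD_G14.5_Acss2WT with replicate numbers 1 and 2, and no measured value entered the choice. They are 328 of the 7897 single cells labelled in the study, with 52 cells in the first library of the high-fat diet, 173 cells in both libraries of the standard diet and the rest in the second library of the high-fat diet. The reads of all cells of 1 group and replicate were summed, which gave 4 libraries, 2 per diet, and these libraries are the replicates of every comparison below.

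All animals were female C57BL/6J mice. HFD_G14.5_Acss2WT cells carried the labels high-fat diet and Acss2 WT, and SD_G14.5_Acss2WT cells carried the labels standard diet and Acss2 WT. 3 further groups of stage G14.5 served as outside points. HFD_G14.5 was on the high-fat diet with no genotype label, G14.5_Acss2WT was on the standard diet and Acss2 WT, and G14.5 was on the standard diet with no genotype label. The main fit also held the high-fat groups HFD_G14.5_Acss2KO, HFD_G0_Acss2KO, HFD_G0_Acss2WT, HFD_G0 and HFD_P7NL, so knockouts and other stages entered its spread. G0_Acss2WT, on the standard diet, gave the stage G0 side of the pregnancy genes, in a fit that also held Acss2 KO and stage G18.5 groups. The labels do not say what allele, Cre driver or litter stands behind "Acss2 WT", how long the diet was given, what it contained, how old the mice were, or how many mice gave cells to a replicate. A culture protocol with inhibitors stands on every sample, but the names of these groups name no compound. The replicates of the 4 main libraries were labelled biological, and p-values measure only the spread between such libraries.

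The β cell of the pancreatic islet makes insulin and releases it when blood glucose rises, and in pregnancy it adapts to the insulin resistance of the mother under the action of placental lactogens on the prolactin receptor. 3 genes, Mlxipl, Hopx and Pam, were singled out with earlier results of these data in view. Mlxipl encodes ChREBP, a transcription factor that is activated by glucose metabolites and binds E-box pairs (its response element is built from CACGTG-like motifs) in genes of glycolysis and lipid synthesis. Hopx encodes a small homeodomain protein that does not bind DNA itself and acts as a cofactor of other transcription factors. Pam encodes peptidylglycine alpha-amidating monooxygenase, an enzyme of secretory granules that gives many peptide hormones their C-terminal amide. ACSS2, named in the title of the study, makes acetyl-CoA from acetate.

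The promoters of the 2 marker genes that code for transcriptional regulators are shown because both hold the palindrome CACGTG, which reads the same on both strands. Each is the 250 bases before a RefSeq start on GRCm38.p6, 5′ to 3′ on the strand of the gene, with CACGTG in capitals. The Mlxipl stretch is chr5:135089640-135089889 on the plus strand, and its motif begins 98 bases before the start. The Hopx stretch is chr5:77095268-77095517 on the minus strand, and its motif begins 86 bases before the start.
Mlxipl: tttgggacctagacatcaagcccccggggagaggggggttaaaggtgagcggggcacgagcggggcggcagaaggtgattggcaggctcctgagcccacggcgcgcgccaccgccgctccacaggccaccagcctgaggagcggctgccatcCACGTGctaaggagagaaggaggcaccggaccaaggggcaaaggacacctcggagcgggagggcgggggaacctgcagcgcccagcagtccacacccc
Hopx: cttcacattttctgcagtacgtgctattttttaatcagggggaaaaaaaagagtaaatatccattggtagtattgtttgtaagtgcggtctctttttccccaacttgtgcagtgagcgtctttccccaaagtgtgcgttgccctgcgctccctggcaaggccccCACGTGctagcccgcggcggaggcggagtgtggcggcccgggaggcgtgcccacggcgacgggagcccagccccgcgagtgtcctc
The other listed start of each gene had no CACGTG in its 250 bases, and neither had the starts of Pam. Among all 32851 promoter windows of this length 6.02% held the motif, which 6.86% of all genes had in at least 1 window, and of the 26 genes matched among the 30 called below, 5 had a window with it (Actg1, Ccdc6, Fnip1, Hopx and Mlxipl).

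The libraries held 72707166 and 129302954 reads on the high-fat diet and 81219130 and 63051301 reads on the standard diet. Cells of the high-fat diet were read more deeply, with medians of 8516 and 7756 genes detected per cell, against 6746 and 6814 on the standard diet. The insulin genes took 45.06% and 56.15% of the reads on the high-fat diet, against 61.20% and 66.97% on the standard diet. Reads from transcripts over 55% GC made up 21.54% and 22.16% of the non-insulin reads on the high-fat diet, against 19.57% and 17.95% on the standard diet. The other 13 libraries of the same table held between 20.16% and 25.16%. In summed reads, fewer cells of a type and less RNA per cell cannot be told apart. The label β cell was borne out by its markers in all 4 libraries, since all 10 β-cell markers were read in each and they summed to 501300 and 605600 CPM (read counts per 1000000 reads) on the high-fat diet and 648900 and 698800 CPM on the standard diet. Summed levels of α-cell markers were 1201 and 816.1 CPM on the high-fat diet, against 623.2 and 821.2 CPM on the standard diet, and their groups overlapped. Summed δ-cell markers stood at 1163 and 155.4 CPM on the high-fat diet, against 86.36 and 66.06 CPM on the standard diet, with 2, 1, 2 and 3 of the 7 markers at 0 in these libraries. Of the 3 PP-cell markers Ppy was highest, at 434.6 and 100.5 CPM on the high-fat diet, against 60.56 and 50.91 CPM on the standard diet. Ductal markers, mostly Krt7, summed to 267.9 and 183.0 CPM on the high-fat diet, against 149.2 and 90.93 CPM on the standard diet, and immune markers, nearly all C1qa, summed to 91.45 and 84.16 CPM on the high-fat diet, against 73.07 and 40.93 CPM on the standard diet. As CPM of all reads, the δ, PP, ductal and immune sums separated the diets, and their part in the results below was not tested. The smaller insulin share on the high-fat diet leaves more reads to all other genes, in these sums and in the single-cell values below. The factors of the TMM scaling used below were 1.24 and 0.968 on the high-fat diet, against 0.862 and 0.744 on the standard diet. They were not applied to marker sums or single cells, and whether the sums separate with them was not computed. Markers of acinar, endothelial, stromal, fat and liver cells summed to at most 21.11 CPM in any of the 4.

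The comparison of the diets called 30 genes, 9 higher and 21 lower on the high-fat diet, which is 0.0638% and 0.149% of the 14115 genes tested and 0.213% in all. A gene was called at an adjusted p under 0.05 in edgeR's quasi-likelihood test with Benjamini-Hochberg adjustment, in 1 fit of all 17 libraries of the table. All 30 showed no overlap between the 2 libraries of each diet, which was also true of 23.6% of all genes tested on the higher side and of 21.3% on the lower side. 7 of the higher and 12 of the lower genes differed at least 2-fold. The median log2 fold change of all genes was 0.0159. With 2 libraries per diet an exact permutation test of a single gene cannot go below 0.333, so all calls rest on the spread shared across genes and groups.

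**Figure D1:**
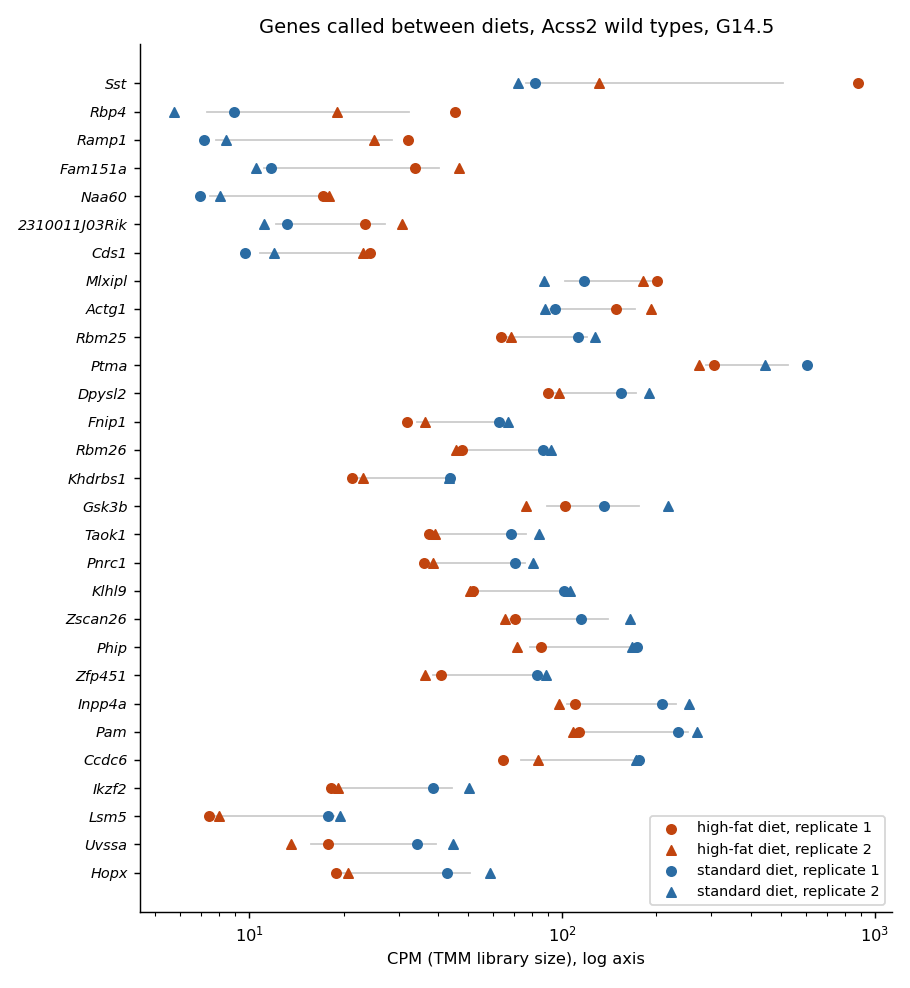
CPM on a log axis of 29 of the 30 called genes in the 2 high-fat-diet libraries (red) and the 2 standard-diet libraries (blue), with a grey line between the means of the diets. The symbols of the diets do not overlap for any gene drawn, and Sst spans from 130.9 to 884.2 CPM within the high-fat diet.

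Mlxipl was higher on the high-fat diet. It had 201.5 and 181.6 CPM on the high-fat diet and 117.1 and 87.1 CPM on the standard diet, with the library size scaled by TMM here and in all CPM values of single genes that follow. Both high-fat libraries lay above both standard-diet libraries, and the fold was 1.88 (log2 fold change 0.91 ± 0.18 SE, adjusted p 0.0460). Over single cells, in CPM of all reads of a cell, the median level was 254.2 and 145.9 in the high-fat libraries, against 79.01 and 60.05 in the standard-diet libraries. After each cell was thinned to 200000 reads (1 cell was left out), a read of Mlxipl was found in 100% and 100% of the high-fat-diet cells, against 97.53% and 96.74% of the standard-diet cells. The median level per cell separated the diets, while nearly every cell carried the transcript on both. The gene lies at chr5:135089890-135138382 on the plus strand (GRCm38).

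Hopx was lower on the high-fat diet. It had 18.8 and 20.7 CPM on the high-fat diet and 42.9 and 58.6 CPM on the standard diet, which is 2.57-fold lower (log2 fold change -1.36 ± 0.28 SE, adjusted p 0.0483). The standard-diet libraries differed more from each other than the high-fat ones. Median levels over cells were 23.21 and 19.13 CPM on the high-fat diet, against 30.50 and 37.97 CPM on the standard diet. The highest single cell of a high-fat library had 63.80 CPM, and that of a standard-diet library had 160.2 CPM. The gene lies at chr5:77086988-77115121 on the minus strand.

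Pam was lower on the high-fat diet. It had 113.1 and 108.2 CPM on the high-fat diet and 234.7 and 270.7 CPM on the standard diet, which is 2.28-fold lower (log2 fold change -1.19 ± 0.19 SE, adjusted p 0.0268). The 2 high-fat libraries were nearly equal, and the lower standard-diet library was still far above them. In cells the medians were 132.1 and 101.1 CPM on the high-fat diet, against 173.8 and 188.9 CPM on the standard diet, and every cell of the 4 libraries had a read. The gene lies at chr1:97795114-98095646 on the minus strand.

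**Figure D2:**
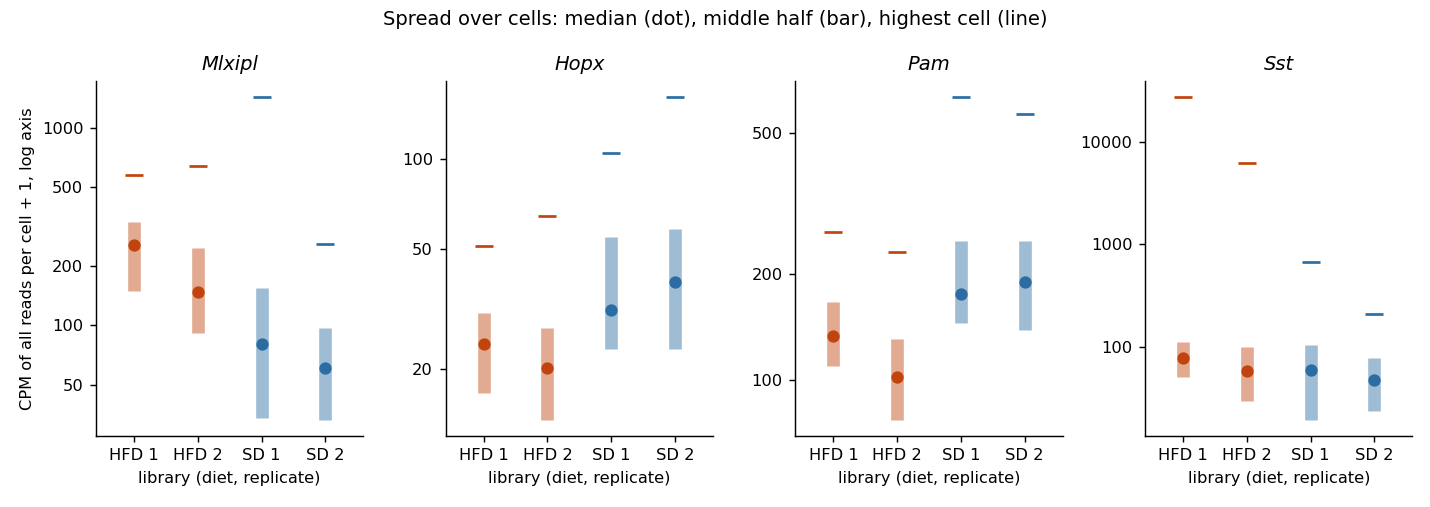
CPM of all reads per cell plus 1, on a log axis, for Mlxipl, Hopx, Pam and Sst over the cells of the 2 high-fat-diet libraries (red, HFD) and the 2 standard-diet libraries (blue, SD), with the median as a dot, the middle 50% of cells as a bar and the highest cell as a line. The medians of Mlxipl, Hopx and Pam separate by diet, whereas those of Sst lie between 46.47 and 76.50 CPM in all 4 libraries.

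These calls depended on single libraries. For Mlxipl, Hopx and Pam the adjusted p was 0.219, 0.273 and 0.111 without the first high-fat library, 0.148, 0.204 and 0.141 without the second, and 0.374, 0.337 and 0.228 without the second standard-diet library, while all 3 stayed called without the first standard-diet library (0.0419, 0.0426 and 0.0241). In these 4 fits the log2 fold change ranged from 0.71 to 1.14 for Mlxipl, from -1.57 to -1.12 for Hopx and from -1.29 to -1.08 for Pam. Of the 30 genes, 0, 2, 15 and 0 were still called without the first and second high-fat library and the first and second standard-diet library, and 0 were when the fit held only these 4 libraries, although all 30 kept their sign each time.

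The other 8 genes called higher began, by size, with Sst and Rbp4. Sst, which encodes somatostatin, the hormone of δ cells, had 884.2 and 130.9 CPM on the high-fat diet and 81.57 and 71.95 CPM on the standard diet (log2 fold change 2.72 ± 0.54 SE, adjusted p 0.0432). In the first high-fat library 1 cell of 52 held 63.98% of the Sst reads and 5 cells held 93.96%, and the median cell had 76.50 and 57.43 CPM on the high-fat diet, against 58.46 and 46.47 CPM on the standard diet. Without that library the log2 fold change of Sst was 0.79 and the adjusted p 0.527. Rbp4, the plasma carrier of retinol and one of the δ-cell markers used here, had 45.5 and 19.1 CPM on the high-fat diet and 8.93 and 5.75 CPM on the standard diet (log2 fold change 2.13 ± 0.39 SE, adjusted p 0.0392). 5 cells held 67.75% and 59.61% of its reads on the high-fat diet, and 58.88% and 39.26% on the standard diet. Without the first high-fat library Rbp4 stood at 1.39 on the log2 scale (adjusted p 0.273). Sst and Rbp4 are the 2 called of the 5 δ-cell markers tested. No marker of any other cell type was called, and no cell of the 4 libraries had over 5% of its reads in Gcg, Sst, Ppy and Pyy. The part of a few hormone-rich cells in these calls was not tested beyond these values.

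Ramp1 encodes a single-pass protein that pairs with calcitonin-family receptors and sets their ligand. It had 32.15 and 25.05 CPM on the high-fat diet and 7.17 and 8.44 CPM on the standard diet (log2 fold change 1.87 ± 0.31 SE, adjusted p 0.0268). After thinning, a read of Ramp1 was found in 80.77% and 51.96% of the high-fat-diet cells, against 25.93% and 30.43% of the standard-diet cells. Both high-fat libraries lay above both standard-diet libraries in level and in share of cells. Fam151a had 33.74 and 46.93 CPM on the high-fat diet and 11.71 and 10.53 CPM on the standard diet (log2 fold change 1.86 ± 0.36 SE, adjusted p 0.0392). Its thinned share was 94.23% and 87.25% of cells on the high-fat diet, against 48.15% and 35.87% on the standard diet. Cds1, a synthase of CDP-diacylglycerol for phospholipid synthesis, had 24.2 and 23.1 CPM on the high-fat diet and 9.669 and 11.995 CPM on the standard diet (log2 fold change 1.13 ± 0.21 SE, adjusted p 0.0392). Both diets gave tight pairs for Cds1, and its thinned share was 76.92% and 71.57% of high-fat-diet cells, against 41.98% and 45.65% of standard-diet cells. Actg1, cytoplasmic γ-actin, had 148.2 and 192.6 CPM on the high-fat diet and 94.8 and 88.1 CPM on the standard diet (log2 fold change 0.90 ± 0.16 SE, adjusted p 0.0392). Naa60, an N-terminal acetyltransferase of the Golgi, and 2310011J03Rik, for which no role is given here, had log2 fold changes of 1.23 and 1.15 (adjusted p 0.0408 and 0.0392).

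Among the 21 lower genes were a phosphatase of phosphoinositides and 2 kinases, which were not a list of their own. Inpp4a, a phosphatase that removes the 4-phosphate of phosphatidylinositol 3,4-bisphosphate, had 109.6 and 97.8 CPM on the high-fat diet and 208.8 and 254.7 CPM on the standard diet (log2 fold change -1.16 ± 0.19 SE, adjusted p 0.0268). Both high-fat libraries of Inpp4a lay far below both standard-diet libraries. Gsk3b, a kinase that insulin signalling inhibits, had 101.9 and 76.6 CPM on the high-fat diet and 135.99 and 217.1 CPM on the standard diet (log2 fold change -0.98 ± 0.20 SE, adjusted p 0.0451). In single cells its medians, which were not scaled by TMM, were 117.2 and 68.73 CPM on the high-fat diet, against 113.5 and 158.4 CPM on the standard diet, and these overlapped. Whether they overlap with that scaling was not computed. Without the second standard-diet library the log2 fold change of Gsk3b was -0.61 (adjusted p 0.427), and without the first it was -1.28. Phip, which binds insulin receptor substrate 1, Fnip1, a folliculin partner in AMPK and mTORC1 signalling, and the kinase Taok1 had log2 fold changes of -1.12, -0.92 and -0.997 (adjusted p 0.0392, 0.0398 and 0.0398).

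Other lower genes encode nuclear and RNA-binding proteins. Ikzf2, the zinc finger factor Helios, had 18.2 and 19.2 CPM on the high-fat diet and 38.7 and 50.4 CPM on the standard diet (log2 fold change -1.25 ± 0.24 SE, adjusted p 0.0392). Pnrc1, a coregulator of nuclear receptors, had 36.2 and 38.7 CPM on the high-fat diet and 70.7 and 80.9 CPM on the standard diet (log2 fold change -1.02 ± 0.18 SE, adjusted p 0.0392). Lsm5, a subunit of the Sm-like ring on U6 snRNA and on decaying mRNA, had 7.45 and 7.999 CPM on the high-fat diet and 17.8 and 19.5 CPM on the standard diet (log2 fold change -1.27 ± 0.25 SE, adjusted p 0.0398). The groups were well apart for all 3. The splicing and RNA-binding genes Khdrbs1, Rbm25 and Rbm26 had log2 fold changes between -0.98 and -0.86, and the zinc finger genes Zfp451 and Zscan26 had -1.15 and -1.04. Ptma, prothymosin alpha, had -0.86 (adjusted p 0.0459).

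Further lower genes were Ccdc6, Klhl9, Dpysl2 and Uvssa. Ccdc6, a coiled-coil protein known from fusions with RET, had 64.7 and 83.5 CPM on the high-fat diet and 176.5 and 172.3 CPM on the standard diet (log2 fold change -1.24 ± 0.21 SE, adjusted p 0.0392). Klhl9, an adaptor of the cullin 3 ubiquitin ligase, had 51.8 and 50.7 CPM on the high-fat diet and 101.1 and 106.2 CPM on the standard diet (log2 fold change -1.02 ± 0.16 SE, adjusted p 0.0268). Dpysl2, a regulator of microtubules, and Uvssa, a factor of transcription-coupled DNA repair, had log2 fold changes of -0.87 and -1.33 (adjusted p 0.0392 each). Exons of 5 called genes overlap those of another gene in the table: 2310011J03Rik with Apc2, Fam151a with Acot11, Klhl9 with Gm26566, Taok1 with Abhd15, and Naa60 with 3 genes, and since strand use in counting is not given, their reads cannot be told apart from those of the partner. Actg1, Ptma and the 2 insulin genes have near-identical copies, so their counts are uncertain in the same way.

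The insulin genes themselves were not called. Ins2 had 260660 and 411580 CPM on the high-fat diet and 499960 and 627750 CPM on the standard diet (log2 fold change -0.75 ± 0.21 SE, adjusted p 0.139), and Ins1, with 103590 and 168660 CPM on the high-fat diet and 209970 and 271890 CPM on the standard diet, stood at -0.82 ± 0.27 SE on the log2 scale (adjusted p 0.190). The libraries of the 2 diets did not overlap for either gene. Without the first high-fat library Ins2 and Ins1 stood at -0.44 and -0.50, and without the second at -1.11 and -1.22. Acss2 had 48.1 and 41.9 CPM on the high-fat diet and 33.5 and 35.3 CPM on the standard diet (log2 fold change 0.39 ± 0.22 SE, adjusted p 0.484). The prolactin receptor Prlr had 1015 and 979.7 CPM on the high-fat diet and 1273 and 1591 CPM on the standard diet (log2 fold change -0.52 ± 0.21 SE, adjusted p 0.317). The serotonin synthesis genes Tph1 and Tph2, which rise in pregnant islets, had log2 fold changes of 0.63 ± 0.58 SE and -0.01 ± 1.03 SE (adjusted p 0.703 and 1). Tph1 had 195.7 and 227.9 CPM on the high-fat diet and 132.2 and 142.4 CPM on the standard diet, without overlap. Its SE comes from the fit of all 17 libraries, which holds G0 groups where Tph1 averaged between 0.205 and 0.929 CPM. In the joint fit of stage G14.5 described below, HFD_G14.5_Acss2WT against G14.5_Acss2WT, another standard-diet group, gave Tph1 0.10 ± 0.17 SE on the log2 scale. SD_G14.5_Acss2WT against G14.5_Acss2WT gave -0.54 ± 0.17 SE there. The main contrast was not run in that fit, where Tph1 had 188.9 and 221.6 CPM in HFD_G14.5_Acss2WT and 127.8 and 136.8 CPM in SD_G14.5_Acss2WT. The part of the G0 groups in the wide SE was not tested. Chgb, a granin, had 0.33, the satiety peptide Ucn3 had -0.08, and Txnip, a target of ChREBP, had 0.36, none of them called (adjusted p 0.582, 0.894 and 0.728). Mafa, a β-cell transcription factor, was read at very low levels, at 0.889 and 1.30 CPM on the high-fat diet and 0.800 and 0.724 CPM on the standard diet.

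24 lists of genes of β-cell biology held 6 of the 30 called genes when the δ-cell markers are counted with them: Mlxipl, Hopx, Pam, Gsk3b, Sst and Rbp4. Of all genes tested 0.213% were called. The share of tested genes that the lists cover was not counted, so the 6 have no background to be read against. Mlxipl, Hopx and Pam among them were singled out with earlier results in view. In the list of ChREBP and glucose-responsive genes, 1 of 18 tested members (Mlxipl) was called higher and none lower, and the median log2 fold change was 0.35. That median was 0.05 without the second high-fat library and 0.54 without the first. Pklr, the pyruvate kinase that is a classic ChREBP target, had 4.05 and 4.36 CPM on the high-fat diet and 1.54 and 1.92 CPM on the standard diet but did not pass (log2 fold change 1.28 ± 0.56 SE, adjusted p 0.358). Of the 29 tested genes of glycolysis, pyruvate and the TCA cycle none was called. 11 of them were higher and none lower at an unadjusted p under 0.05, which 6.29% of all genes reached on the higher side, and their median was 0.30. It was 0.45 without the first standard-diet library. Pkm, the pyruvate kinase of most tissues, came nearest, with 489.7 and 592.0 CPM on the high-fat diet and 368.5 and 248.5 CPM on the standard diet (log2 fold change 0.81 ± 0.18 SE, adjusted p 0.0541). Eno1, enolase, and Sdha, a subunit of succinate dehydrogenase, had 0.61 and 0.59 (adjusted p 0.109 and 0.124). Of 22 lysosome and autophagy genes none was called, 6 were higher and none lower at an unadjusted p under 0.05, and the median was 0.38, or 0.25 without the second high-fat library. Of 29 genes of fatty acid oxidation and PPAR targets none was called, 5 were higher and 1 lower at that level, and the median was 0.37. Cpt1a, which brings fatty acids into mitochondria, had 26.4 and 19.5 CPM on the high-fat diet and 13.7 and 9.97 CPM on the standard diet (log2 fold change 0.95 ± 0.32 SE, adjusted p 0.20).

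Genes of protein entry into the endoplasmic reticulum had a median of -0.08, with none of 24 called and 7 lower and none higher at an unadjusted p under 0.05, which 5.99% of all genes reached on the lower side. That median was 0.04 without the first high-fat library, the other sign, and -0.18 without the second. Among 23 genes of β-cell identity 1 was called (Hopx, lower), and their median was -0.06. Nkx2-2, a β-cell transcription factor, had 40.36 and 47.97 CPM on the high-fat diet and 85.7 and 59.6 CPM on the standard diet (log2 fold change -0.72 ± 0.20 SE, adjusted p 0.123). The incretin receptor Glp1r had 21.9 and 15.9 CPM on the high-fat diet and 10.6 and 9.97 CPM on the standard diet (log2 fold change 0.88 ± 0.33 SE, adjusted p 0.259). Among 22 insulin and IGF signalling genes 1 was called (Gsk3b, lower), and among 20 genes of insulin processing and granins 1 was called (Pam, lower). None was called among 24 genes of the unfolded protein response, 26 of oxidative phosphorylation, 23 of acetyl-CoA and histone acetylation or 24 of the response to lactogens, with medians of -0.16, -0.06, 0.09 and 0.09. Insig1, which restrains sterol synthesis, came closest among 28 genes of sterol and fatty acid synthesis, at 39.2 and 31.6 CPM on the high-fat diet and 58.8 and 75.3 CPM on the standard diet (log2 fold change -0.92 ± 0.20 SE, adjusted p 0.0501).

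The position of the 3 marker genes among all groups of the table shows how far apart the 2 diets lay relative to pregnancy. Mlxipl averaged 191.6 ± 14.08 CPM in HFD_G14.5_Acss2WT, 149.1 ± 11.66 in HFD_G14.5_Acss2KO (SD, n = 2 each) and 208.0 ± 26.13 in HFD_G14.5 (SD, n = 3). It averaged 102.1 ± 21.19 CPM in SD_G14.5_Acss2WT, the lowest of the 8 groups, and between 286.9 and 381.7 CPM in the 3 high-fat groups of stage G0 and 355.1 CPM in HFD_P7NL, a name as the labels give it. Neighbouring groups in this order overlapped in part, as HFD_G14.5_Acss2WT and HFD_G14.5 did. Hopx ran the other way, at 19.75 ± 1.288 CPM in HFD_G14.5_Acss2WT, 36.07 ± 7.199 in HFD_G14.5_Acss2KO and 26.16 ± 2.134 in HFD_G14.5, against 50.75 ± 11.09 in SD_G14.5_Acss2WT. The G0 groups averaged between 7.237 and 14.72 CPM of Hopx. Pam was lowest in HFD_G14.5_Acss2WT and highest in SD_G14.5_Acss2WT, at 110.6 ± 3.451 and 252.7 ± 25.45 CPM, and the other 6 groups averaged between 118.1 and 187.9 CPM. The genes whose log CPM followed Mlxipl most closely over the 17 libraries were Insrr, Psap, Vwa5b2, Bace2 and Vipr1, with Pearson's r of 0.969, 0.928, 0.927, 0.920 and 0.903 among 7285 genes, as a description of libraries that share groups. None of the 5 was called between the diets. Insrr, the insulin receptor-related receptor, had 253.9 and 283.9 CPM on the high-fat diet and 197.3 and 124.3 CPM on the standard diet (log2 fold change 0.74 ± 0.21 SE, adjusted p 0.129).

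**Figure D3:**
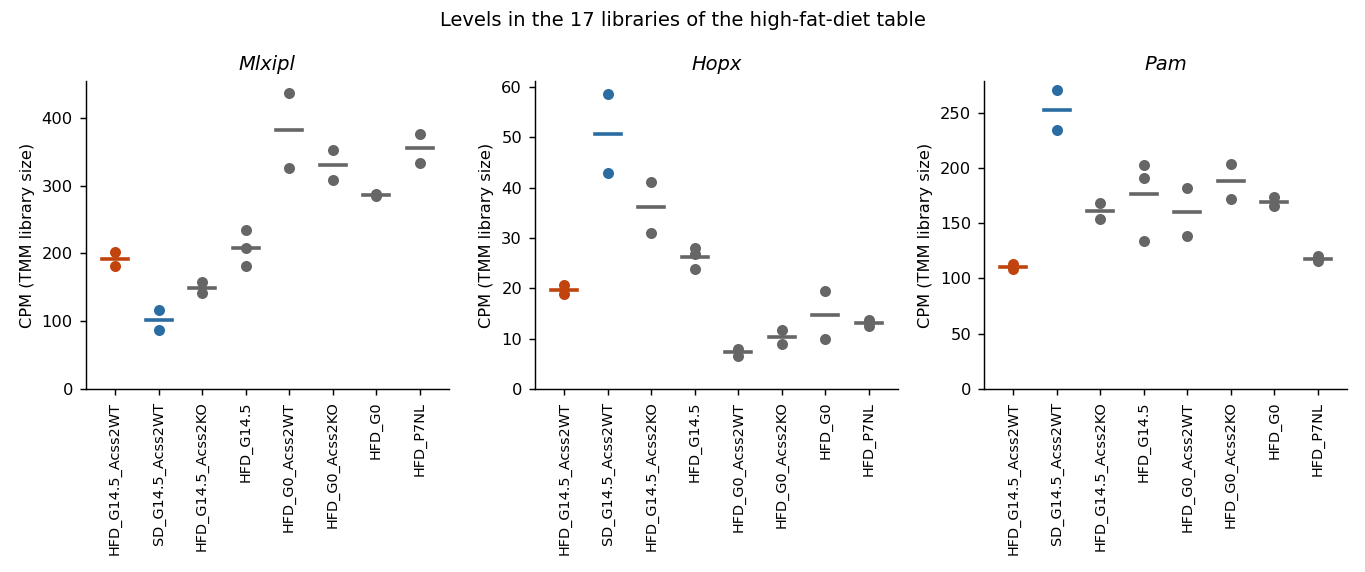
CPM of Mlxipl, Hopx and Pam in each of the 17 libraries (points) and their group means (lines) in the 8 groups of the high-fat-diet table, with HFD_G14.5_Acss2WT in red, SD_G14.5_Acss2WT in blue and the other groups in grey. SD_G14.5_Acss2WT has the lowest mean of Mlxipl, 102.1 CPM, and the highest means of Hopx and Pam, 50.75 and 252.7 CPM.

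Genes that changed in pregnancy on the standard diet were taken from another table, G14.5_Acss2WT against G0_Acss2WT, which shares no library with the diet comparison. There 410 genes of 14057 were called at stage G14.5 (2.92%), 283 higher (2.01%) and the rest lower (0.903%). Between the diets 1 of the 283 was called, Hopx, lower on the high-fat diet, and 1 of those lower in pregnancy was called, Mlxipl, higher on the high-fat diet. In pregnancy Hopx had a log2 fold change of 1.95 (adjusted p 0.000186) and Mlxipl of -0.84 (adjusted p 0.00448). For both genes the difference between the diets thus had the opposite sign to the difference in pregnancy. The 2 differences rest on different standard-diet libraries of stage G14.5. Against G14.5_Acss2WT, the set used for pregnancy, HFD_G14.5_Acss2WT had 0.16 for Mlxipl and -0.72 for Hopx on the log2 scale. Neither was called in edgeR's test of the joint fit described below (adjusted p 0.954 and 0.627). The genes higher and lower in pregnancy had medians of 0.05 and 0.06 between the diets, against 0.0159 for all genes. Chgb, Tph1 and Prlr, which had log2 fold changes of 2.89, 11.57 and 1.49 in pregnancy, were not called between the diets, as given above.

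The GC content of transcripts moved with the diet difference. The 9 genes called higher had a median GC content of 55.56%, and the 21 called lower had 45.34%, against 50.57% for all genes tested. Median transcript lengths were 1952 bases for the higher and 4095 bases for the lower genes, against 2919 bases for all. In the eighth of genes with the lowest GC content (up to 42.81%) the median log2 fold change was -0.29, and in the eighth with the highest (from 57.24%) it was 0.28, among 7225 genes with a mean of at least 10 CPM. Spearman's rho between log2 fold change and GC content was 0.465 across these genes, which are not independent replicates, and without each of the 4 libraries in turn it lay between 0.335 and 0.515. The range is shown by 90 bases from the middle of the coding sequence of the 2 higher genes with the highest GC content and of the 2 lower genes with the lowest, with G and C in capitals (GENCODE vM21, GRCm38, gene strand).
2310011J03Rik: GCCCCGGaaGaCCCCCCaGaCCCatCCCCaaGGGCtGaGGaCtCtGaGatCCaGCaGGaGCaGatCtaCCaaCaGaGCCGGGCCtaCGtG
Mlxipl: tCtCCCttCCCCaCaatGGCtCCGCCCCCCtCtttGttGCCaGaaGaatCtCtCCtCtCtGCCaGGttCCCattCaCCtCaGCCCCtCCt
Lsm5: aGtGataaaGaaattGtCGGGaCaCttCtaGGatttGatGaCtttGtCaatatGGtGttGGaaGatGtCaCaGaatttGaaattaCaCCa
Phip: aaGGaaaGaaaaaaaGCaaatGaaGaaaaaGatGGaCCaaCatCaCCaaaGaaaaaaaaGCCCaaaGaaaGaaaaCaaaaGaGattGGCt
These stretches hold 64.44%, 58.89%, 35.56% and 32.22% G and C. Ptma, called lower, went against this order with a GC content of 60.27%.

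**Figure D4:**
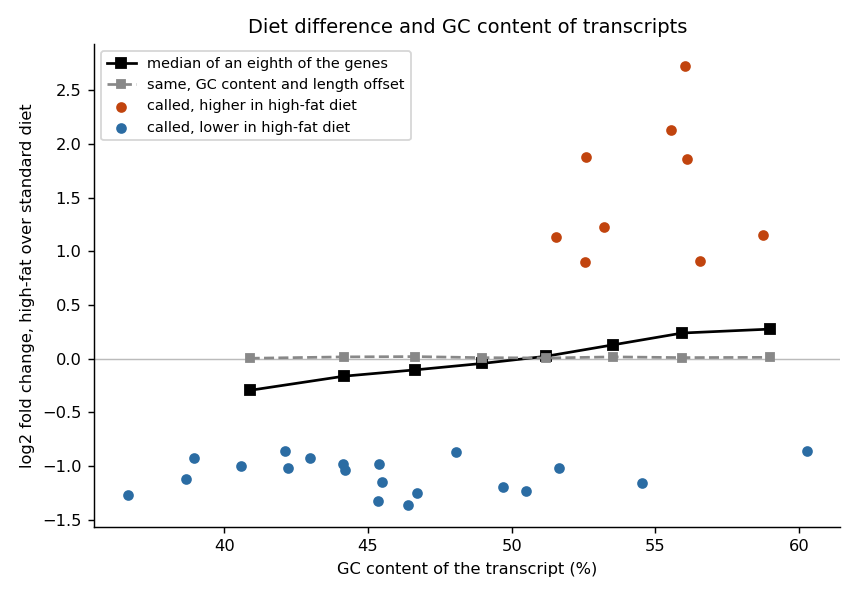
Log2 fold change of the high-fat over the standard diet against the GC content of the transcript in percent. Black squares are medians of eighths of 7225 genes and rise from -0.29 to 0.28, grey squares are the same after the offset and stay between 0.004 and 0.02, and the 9 genes called higher (red) and 20 of those called lower (blue) are drawn singly.

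With a smooth trend of each library on GC content and length taken out before the fit, all 30 genes kept their sign and 7 were still called: Ramp1 and Cds1 higher, and Pam, Inpp4a, Ikzf2, Pnrc1 and Ptma lower. 9 genes were called in all (0.0638% of those tested, 0.0142% higher and 0.0496% lower), the other 2 being Nkx2-2 and Mcmbp, both lower. Inpp4a had the lowest adjusted p (log2 fold change -1.34, adjusted p 0.0116), and Pam stood at -1.13 (adjusted p 0.0371). Mlxipl had 0.70 (adjusted p 0.151), and Hopx had -1.31 (adjusted p 0.0929). The medians of the lists were then 0.21 for glycolysis, pyruvate and the TCA cycle, 0.16 for the lysosome, 0.21 for fatty acid oxidation, 0.29 for the ChREBP list and -0.10 for protein entry into the endoplasmic reticulum. At an unadjusted p under 0.05, 6 genes of the glycolysis list, 4 of the lysosome list, 6 of the fatty acid list and 2 of the ChREBP list were then higher, and 1 of the fatty acid list and 3 of protein entry were lower. Of all 14115 genes tested, 689 were higher and 620 lower at that level with the offset. The libraries of the 2 diets differ in GC content, depth and insulin share at once, and these cannot be told apart from diet in 4 libraries.

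Other libraries with the same labels gave other reference levels. In a joint fit of 12 libraries of stage G14.5, HFD_G14.5_Acss2WT was set against G14.5_Acss2WT, the standard-diet Acss2 wild types of a different table, so the high-fat libraries are shared with the main comparison. No gene was called in edgeR's test there (0% of 14082), and 884 had an unadjusted p under 0.05 (6.28%). Mlxipl had 194.5 and 176.6 CPM on the high-fat diet and 157.02 and 175.2 CPM in these standard-diet libraries (log2 fold change 0.16, adjusted p 0.954). The lower high-fat library and the higher standard-diet library nearly met. Hopx had 18.19 and 20.09 CPM on the high-fat diet and 25.01 and 38.12 CPM in G14.5_Acss2WT (-0.72, adjusted p 0.627), and Pam had 109.2 and 105.2 CPM on the high-fat diet and 156.1 and 198.1 CPM in G14.5_Acss2WT (-0.72, adjusted p 0.586). Both genes kept the libraries of the diets apart, at a smaller difference. The share of all genes without overlap was not counted in this comparison, so this separation has no background to be read against. The median absolute log2 fold change of the 30 genes was 0.248 in this comparison, against 1.12 in the one that chose them. The list medians were 0.05 for glycolysis, pyruvate and the TCA cycle, -0.06 for the lysosome, -0.04 for fatty acid oxidation, -0.03 for the ChREBP genes and 0.02 for protein entry into the endoplasmic reticulum. Spearman's rho of log2 fold change with GC content was 0.00132 in this comparison.

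The 2 sets of standard-diet Acss2 wild types of stage G14.5 were also compared with each other. SD_G14.5_Acss2WT against G14.5_Acss2WT called 7 genes, 4 higher and 3 lower (0.0284%, 0.0213% and together 0.0497% of 14082), and 3 of them are among the 30 diet calls: Ccdc6 and Taok1, higher in SD_G14.5_Acss2WT, and Ramp1, lower. Ccdc6 had 170.6 and 165.6 CPM in SD_G14.5_Acss2WT and 64.73 and 69.47 CPM in G14.5_Acss2WT (log2 fold change 1.33, adjusted p 0.0412). Ramp1 had 6.931 and 8.108 CPM in SD_G14.5_Acss2WT and 21.69 and 17.92 CPM in G14.5_Acss2WT (-1.40, adjusted p 0.0488). With the offset for GC content and length Ccdc6 was still called (adjusted p 0.0445), while Ramp1 and Taok1 had adjusted p of 0.0744 and 0.0946. Over all 30 genes the median absolute log2 fold change between these standard-diet sets was 0.838, and the values ran from -2.28 to 1.33. The SD_G14.5_Acss2WT libraries are shared with the comparison that chose the 30 genes. Part of this size and of the 3 shared calls can therefore come from the choice itself. The same median over all genes was not computed, and the values that follow share these libraries too. The list medians were -0.35 for glycolysis, -0.35 for the lysosome, -0.34 for fatty acid oxidation and -0.31 for the ChREBP genes. Spearman's rho with GC content was -0.458 here. Diet and genotype labels are the same in these 2 sets, and the table and whatever went with it cannot be told apart from the animals.

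A diet comparison that shares no library with the main one is HFD_G14.5 against G14.5, 3 libraries each and in different tables. It called 86 genes higher and 46 lower (0.611%, 0.327% and together 0.937% of 14082). 2 of the 30 genes were called in it, Mlxipl and Actg1, which is 6.67% of the 30 and 1.52% of the genes called in it. Mlxipl had 225.9, 200.2 and 176.4 CPM in HFD_G14.5 and 82.79, 153.9 and 84.12 CPM in G14.5 (log2 fold change 0.91 ± 0.20 SE, adjusted p 0.0474). Actg1 had 216.9, 216.3 and 199.2 CPM in HFD_G14.5 and 97.84, 148.9 and 103.2 CPM in G14.5 (0.85 ± 0.16 SE, adjusted p 0.0305). All 3 high-fat libraries lay above all 3 standard-diet libraries for both. Hopx had 26.92, 25.80 and 23.06 CPM in HFD_G14.5 and 38.05, 29.69 and 42.59 CPM in G14.5 (-0.54 ± 0.19 SE, adjusted p 0.153), and the libraries did not overlap. Pam did overlap, at 195.95, 128.99 and 185.6 CPM in HFD_G14.5 and 148.8, 144.6 and 228.3 CPM in G14.5 (-0.03 ± 0.19 SE, adjusted p 0.960). How many of all genes showed no overlap was not counted here either. 29 of the 30 genes had the same sign in both comparisons, as 64.2% of all 13808 genes tested in both did. The 30 genes were chosen for their difference and all averaged at least 10 CPM, so the 64.2% is not a background of like genes. Both comparisons also followed GC content. Spearman's rho with GC content was 0.620 in this comparison, and with the trend on GC content and length taken out 17 genes were called (0.121%, 10 higher at 0.071% and 7 lower at 0.0497%). None of the 30 genes was then called, with Mlxipl at 0.66 (adjusted p 0.140) and Actg1 at 0.73 (adjusted p 0.0601), and 24 of the 30 had the same sign as between the diets of the Acss2 wild types. The share of all genes with the same sign was not counted with the offset, so these 24 have no background to be read against. These calls also depended on single libraries, since the count was 0 without the first or the third library of either group, and 258 and 817 without the second of HFD_G14.5 and of G14.5.

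**Figure D5:**
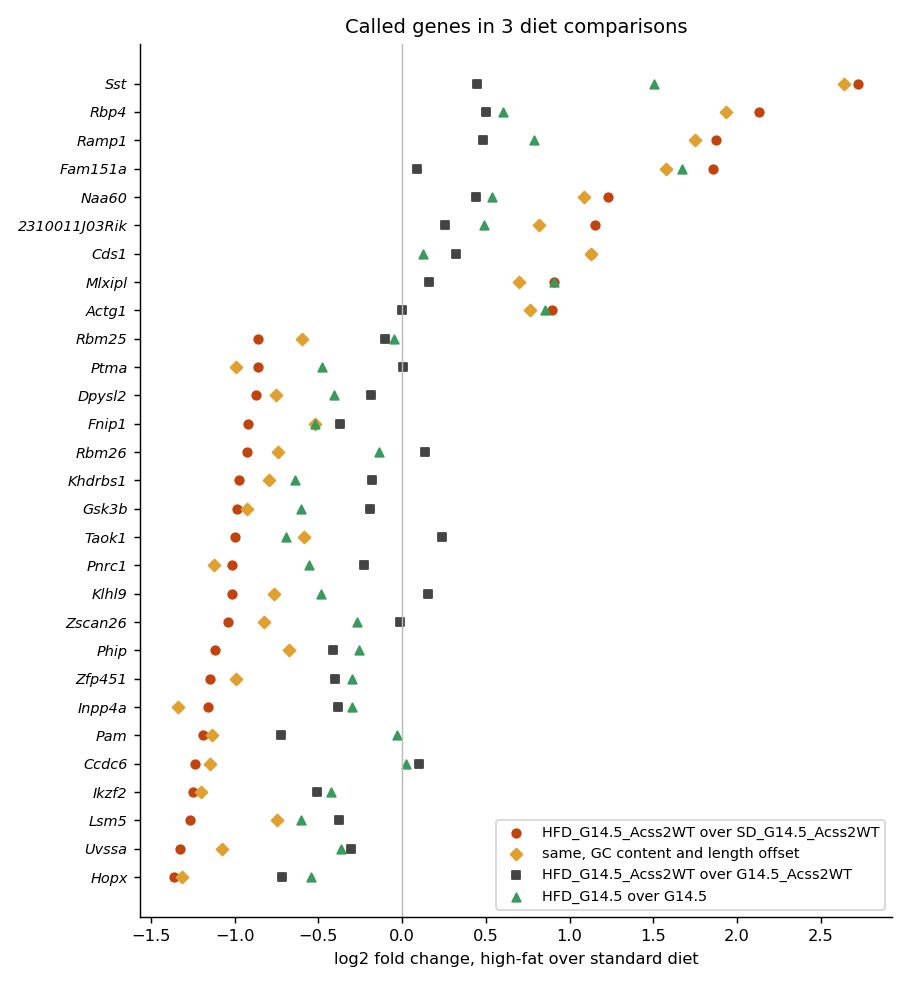
Log2 fold change of 29 of the 30 called genes in HFD_G14.5_Acss2WT over SD_G14.5_Acss2WT (red circles), in the same comparison with the offset for GC content and length (yellow diamonds), in HFD_G14.5_Acss2WT over G14.5_Acss2WT (dark squares) and in HFD_G14.5 over G14.5 (green triangles). Mlxipl sits at 0.91, 0.70, 0.16 and 0.91, and Pam at -1.19, -1.13, -0.72 and -0.03.

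The difference between the 2 diet comparisons that share no library was tested as an interaction in the joint fit. No gene passed edgeR's test (0% of 14082 called, 890 or 6.32% at an unadjusted p under 0.05). The diet difference of none of the 30 genes was thus shown to differ between the Acss2 wild types and the mice without a genotype label. Nor were the differences shown to be equal. The interaction was 0.004 ± 0.32 SE for Mlxipl, -0.81 ± 0.30 SE for Hopx and -1.15 ± 0.29 SE for Pam on the log2 scale. Its median absolute value was 0.731 over the 30 genes, which were chosen in the Acss2 wild types.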

How the data were processed

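Single β cells were profiled by Smart-seq3xpress, a plate-based full-length RNA-seq method. Per the labels' protocols, hand-picked islets were digested to single cells and then sorted on a flow cytometer, with no gate stated. Per the submitters' processing notes, Trimmomatic 0.39 and featureCounts 2.0.1 were used with GRCm38 (mm10). The sources used here give no aligner, strand setting or treatment of duplicates. The authors deposited read counts per gene and cell (21767 genes) and a normalized value, read here as a score, that sums to 100000 per cell without the insulin genes and served in the limma alternatives.

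Counts were summed per group and replicate. edgeR 4.0.16 in R 4.3.3 (filterByExpr, TMM, glmQLFit, glmQLFTest) tested 14115 genes, with an SE of log2 fold change over the square root of F, after a trial on simulated data. Alternatives used DESeq2 1.42.0 and limma 3.58.1. GC content and length came from the transcript with the longest coding sequence in GENCODE vM21. CPM uses TMM library sizes except in cells and marker sums. The members, lists and tests were chosen with earlier results of these data known. A fixed rule named 13 given genes, up to 15 called genes each way that averaged 10 CPM or more and whose diets did not overlap, called list members and the 5 genes nearest to Mlxipl. The other called genes, and Pkm, Pklr, Eno1, Sdha, Cpt1a, Nkx2-2, Mcmbp, Glp1r and Insig1, were chosen after their values were seen, as were the GC content and interaction analyses. Precision is limited by 2 libraries per diet. The values of 1 called gene are not reported here.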

Additional observations from a re-analysis of the deposited data

How the results depend on the processing

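The main comparison called 30 genes, and the counts stayed within 1.5 times of that with DESeq2's size factors (30), without cells over the hormone limit (30), without shallow cells (30) and with limma on the deposited normalized values (40 and 35 with pseudocounts of 1 and 0.1). No cell of the 4 libraries was over the hormone limit, and 1 cell, in the second high-fat library, was shallow. Those 2 settings left the 4 libraries nearly unchanged, so they could not show an effect of such cells. The limma calls held 23 and 21 of the 30, and Mlxipl (adjusted p 0.0928 and 0.088) and Sst (0.14 and 0.137) were not among them. They moved with no filter on low counts (327), the DESeq2 Wald test (394), without Ins1 and Ins2 (49), with only the 4 libraries of the 2 diets (0), with the replicate block (6: Rbp4 and Ramp1 higher, Ccdc6, Inpp4a, Klhl9 and Pam lower), with the offset for GC content and length (9) and with that offset and the replicate block (4). Leaving out 1 library gave between 1 and 37 genes: 1 without high-fat replicate 1, 2 without high-fat replicate 2, 37 without standard-diet replicate 1 and 1 without standard-diet replicate 2. With only the 4 libraries, 0 genes passed edgeR's test, and the highest adjusted p of the 30 was 0.145. All 30 kept their direction under every alternative run. Ins2 was called with no filter and with the DESeq2 Wald test, and Ins1 with no filter.

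Tph2, at -0.00664, ranged, with 1 library left out, from -0.0923 without high-fat replicate 1 to 0.0896 without high-fat replicate 2, and reversed to 0.0345 without standard-diet replicate 1, to 0.0526 with the offset and to 0.0531 with the offset and block. Txnip ranged, likewise, from -0.073, reversed, without high-fat replicate 2 to 0.716 without high-fat replicate 1. SD_G14.5_Acss2WT against G14.5_Acss2WT called 7 genes, 4 with the offset and 8 to 37 with a library left out. HFD_G14.5_Acss2WT against G14.5_Acss2WT called 0, and 0 to 18 with a library left out. HFD_G14.5 against G14.5 called 86 higher and 46 lower, 17 with the offset and 0 to 817 with a library left out. Of the pregnancy genes 2 were called between the diets, and 1 (Hopx) when the list was limited to at least 2-fold. The correlation of same-numbered deviations from the group mean was 0.00992 over 7229 genes. With 2 replicates per diet this value cannot show whether same-numbered replicates were handled together. Causes of these shifts were not tested. Where a library was left out, the lone library of its diet was assumed to vary like the other groups.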
